A study of Homo sapiens with 18 samples.

Results

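The 10 genes described here encode proteins that bind, mature and use U6 snRNA: SSB, MEPCE, LARP7 and SART3 on the maturation side, PRPF3, PRPF4 and PRPF31 of the U4/U6 particle, and PRPF6, PRPF8 and SNRNP200 of the U5 particle and the tri-snRNP. They were matched by symbol to 10 of the 35168 Ensembl identifiers in the tables. WT and USB1 mutant cells of the human embryonic stem cell line H1 were compared as undifferentiated hESCs (D0), as CD34+/CD45+ hematopoietic progenitors (D16) and as mature blood cells (D30), with 3 RNA-seq libraries for each of these 6 groups. The mutants carry a deletion in USB1 made with CRISPR/Cas9 and derive from cells picked by hand after low-density seeding. How many clones stand behind the libraries is not given in the sources used here, nor whether the WT cells were picked in the same way.

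USB1 is an exonuclease that shortens the 3′ end of U6 snRNA. Newly made U6 ends in a run of uridines that the La protein (SSB) holds first, and after trimming the Lsm2-8 ring takes over that end. SART3 then helps U6 to pair with U4, the PRPF3, PRPF4 and PRPF31 proteins settle on the U4/U6 duplex, and PRPF6 bridges it to the U5 particle, in which PRPF8 and the helicase SNRNP200 prepare the active site of the spliceosome. Mutations in several of these genes, among them PRPF3, PRPF31, PRPF6, PRPF8 and SNRNP200, are known causes of retinitis pigmentosa.

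Levels within a gene are given as CPM (counts scaled to a common library size), made from rounded expected counts with TMM library sizes over the 18 libraries, and levels between genes as TPM (scaled to transcript length as well). "Called" means a p under 0.1 in edgeR after Benjamini-Hochberg adjustment over all genes tested. Libraries held 4125125 to 19368927 counts, and the lowest count of any of the 10 genes in any library was 106. In these bulk libraries fewer cells of a type and less RNA per cell cannot be told apart. The cells labelled D0 and D16 had their markers: the sum over 5 stem cell markers (POU5F1, NANOG, SOX2, LIN28A, DNMT3B) was 4539 to 5364 CPM at D0 and at most 193 CPM later. The sum over 6 progenitor markers, CD34 and PTPRC (CD45) among them, was at most 41.5 CPM at D0 and 2032 to 2508 CPM at D16. At D30 it was 1505 to 2002 CPM, so it set D16 only narrowly apart from D30. No list was made for mature blood cells as a whole. The mutated gene itself was measured at 79.9 ± 5.70 CPM in WT and 86.2 ± 2.57 CPM in mutants at D0 (SD, n = 3 here and below), at 56.2 ± 5.32 and 54.0 ± 5.73 CPM at D16 and at 67.0 ± 4.71 and 56.7 ± 13.0 CPM at D30. USB1 was called on none of these days (edgeR adjusted p 0.623, 0.668 and 0.432), so its mRNA level does not serve as a check of the labels.

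Because 7 of the 10 genes were called together at D16 (below), the sequences before the start sites are shown for 3 of these (PRPF6, LARP7 and PRPF31) and for SNRNP200, which was not called but holds the same pair of motifs as PRPF6. LARP7 and PRPF31 each hold a CCAAT box. RefSeq promoter windows (GRCh38.p14) matched 8 of the 10 genes, with 12 windows, and only the 250 bases before each start were searched. Capitals mark matches on either strand to an ETS motif, a GC box or a CCAAT box, and in the 4 windows printed no match overlapped another.
PRPF6, chr20:63980882-63981131, + strand: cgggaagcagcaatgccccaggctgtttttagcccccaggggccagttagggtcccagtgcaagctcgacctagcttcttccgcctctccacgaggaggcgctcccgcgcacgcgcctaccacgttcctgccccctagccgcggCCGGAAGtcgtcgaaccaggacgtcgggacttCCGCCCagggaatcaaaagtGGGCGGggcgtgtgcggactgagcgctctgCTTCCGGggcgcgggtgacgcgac
SNRNP200, chr2:96305547-96305796, - strand: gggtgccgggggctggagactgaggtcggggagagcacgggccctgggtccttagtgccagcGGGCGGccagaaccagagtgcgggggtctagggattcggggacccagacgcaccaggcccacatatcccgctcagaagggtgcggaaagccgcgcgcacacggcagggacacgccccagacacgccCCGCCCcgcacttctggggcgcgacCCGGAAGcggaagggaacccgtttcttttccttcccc
LARP7, chr4:112636893-112637142, + strand: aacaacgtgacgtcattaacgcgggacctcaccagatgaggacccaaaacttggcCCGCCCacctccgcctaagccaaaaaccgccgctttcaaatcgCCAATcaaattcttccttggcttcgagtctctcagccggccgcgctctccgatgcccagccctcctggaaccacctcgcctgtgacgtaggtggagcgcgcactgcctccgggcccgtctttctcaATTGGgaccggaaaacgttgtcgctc
PRPF31, chr19:54115504-54115753, + strand: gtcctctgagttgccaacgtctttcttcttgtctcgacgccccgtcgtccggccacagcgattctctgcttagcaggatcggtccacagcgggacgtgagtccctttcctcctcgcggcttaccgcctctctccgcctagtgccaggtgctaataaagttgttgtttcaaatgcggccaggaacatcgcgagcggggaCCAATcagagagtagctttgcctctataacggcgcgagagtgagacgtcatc
The ETS motif, searched as CCGGAAG, was found in the windows of PRPF6 and SNRNP200 and in 8.52% of all 35116 windows of this length. A CCAAT box stood in windows of SSB, LARP7, MEPCE, PRPF8 and PRPF31 and in 32.0% of all windows, the letters searched being those of its name. A GC box, searched as GGGCGG, stood in at least 1 window of each matched gene but PRPF8 and PRPF31 and in 42.6% of all windows. An E-box (CACGTG, 6.34% of all windows) was found for SSB and MEPCE and a TATA motif (TATAAA, 10.7%) for SSB. A gene with several windows (SSB, LARP7 and MEPCE) is named if any of them matched, while the percentages are per single window. The genes named are therefore not on the same scale as those percentages. Thus no motif searched was shared by the 8 genes, and a match is a run of letters and not a measured binding site.

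In WT hESCs the 10 mRNAs spanned 25.0 ± 5.78 TPM (LARP7) to 164 ± 22.5 TPM (SSB). SSB, SNRNP200 (160 ± 13.8 TPM) and PRPF8 (145 ± 18.4 TPM) stood above the rest at D0, and LARP7 and PRPF4 (28.9 ± 0.415 TPM) were the lowest. By D30 the order in WT had changed: PRPF8 was highest at 167 ± 13.0 TPM, SNRNP200 followed at 121.5 ± 17.8 TPM, SSB stood at 54.8 ± 13.6 TPM and PRPF4 was lowest at 14.3 ± 0.674 TPM. In WT, 8 of the 10 genes had their highest mean TPM at D0, the exceptions being LARP7 (38.7 ± 4.52 TPM at D30) and PRPF8. In CPM, which is not scaled to length, the same 8 were highest at D0, but LARP7 and PRPF8 were highest at D16. From D16 to D30 the WT means of these 2 genes fell in CPM (42.5 to 37.0 and 597 to 474). In TPM they rose (32.8 to 38.7 and 117 to 167). When the 6 groups were ranked by mean TPM, the libraries of each group overlapped those of its neighbour in rank for MEPCE (37.5 TPM in WT D0 down to 24.7 TPM in WT D16), PRPF6 (72.1 TPM in WT D0 down to 43.3 TPM in WT D16) and PRPF8 (194 TPM in mutant D30 down to 117 TPM in WT D16). SSB was the most separated, since only WT D16 (62.4 TPM) and WT D30 overlapped, below WT D0, mutant D0 (123 TPM) and mutant D16 (85.3 TPM) and above mutant D30 (35.7 TPM).

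**Figure D1:**
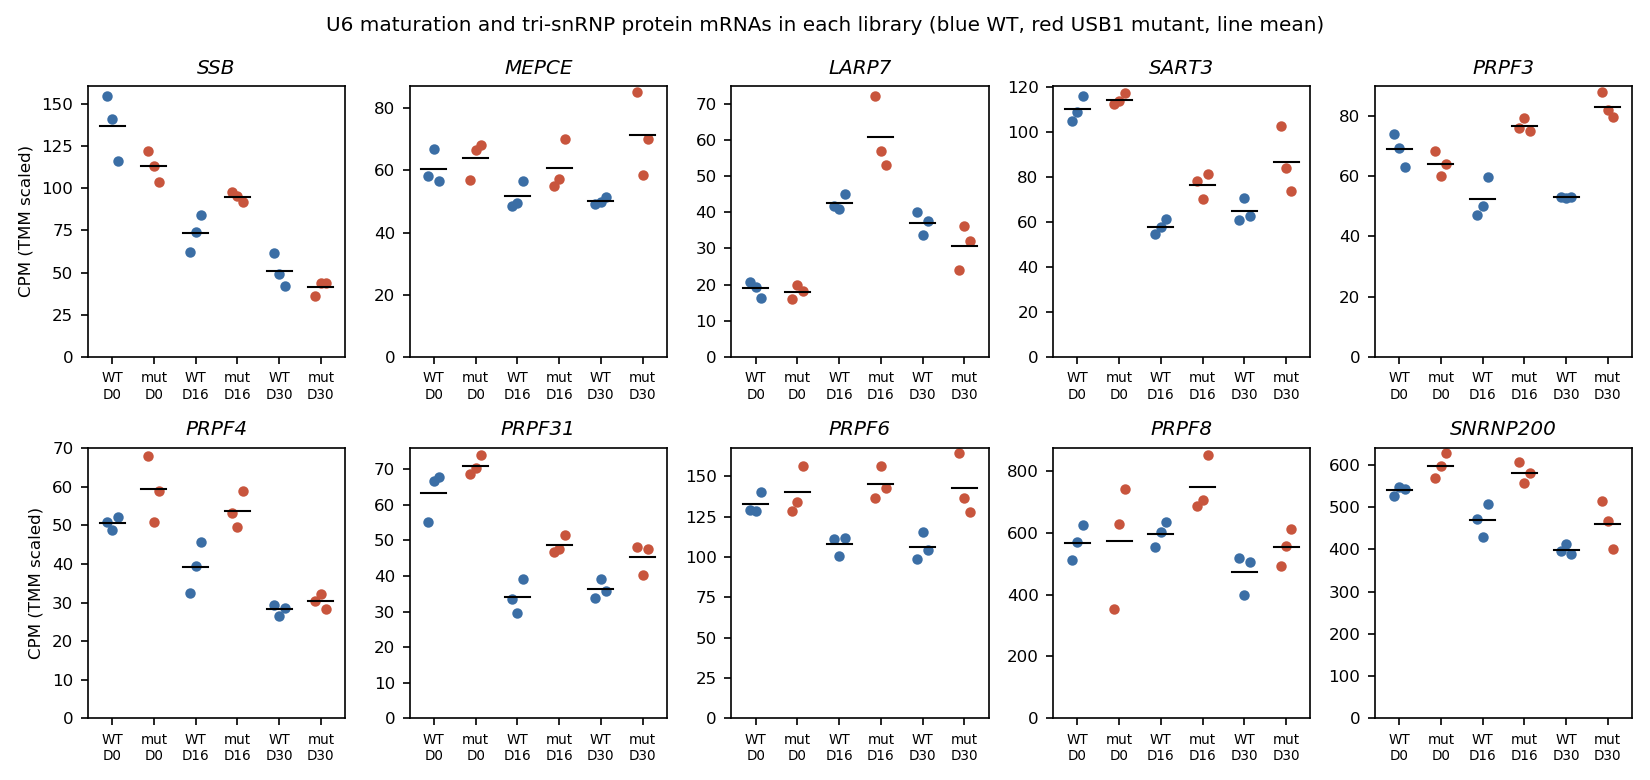
CPM (vertical axis, TMM scaled, from 0) of each of the 10 genes in every library, by genotype and day, with points for libraries and a line for the mean of 3. At D16 the 3 mutant libraries lie above all 3 WT libraries for every gene but MEPCE, and LARP7 rises in WT from a mean of 18.9 CPM at D0 to 42.5 CPM at D16.

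The first comparison asked whether the genes that handle U6 differ between WT and mutant cells before differentiation. In hESCs none of the 10 genes was called, against a background of 2.93% of the 14719 genes tested at D0. At an unadjusted edgeR p under 0.05, 1 of them (SSB) passed, where 14.9% of all genes did, and DESeq2 called none. The log2 fold changes (mutant over WT) ran from -0.28 to 0.23 with a median of 0.07, beside 0.00 for all genes tested. SSB, the La protein that holds the uridine tail of new U6, had the largest difference. Its WT libraries had 155, 141 and 116 CPM and its mutant libraries 122, 113 and 104 CPM. These ranges overlapped, and the log2 fold change was -0.28 ± 0.12 (SE, edgeR adjusted p = 0.31). A fit blocked on replicate number gave SSB an adjusted p of 0.0419. The mutant libraries lay above all WT libraries for 2 genes, PRPF31 and SNRNP200 (10.4% of all genes did). On the deposited TPM, which lack TMM scaling, none of the 10 genes lay above WT (4.02% of all genes did) and SSB and PRPF3 lay below (17.2%). Also, 1 mutant library stood apart for PRPF8, with 355 CPM beside 628 and 741 CPM in the other two.

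At D16, in progenitors, all 10 genes had a positive log2 fold change and 7 of them were called higher in the mutants, against 13.1% of the 14528 genes tested that were called higher. The 7 were SSB, LARP7, SART3, PRPF3, PRPF4, PRPF31 and PRPF6, and none was called lower (15.3% of all genes were). The median log2 fold change of the 10 genes was 0.38, from 0.20 to 0.52, beside a median of 0.01 for all genes tested. Mutant libraries lay above every WT library for 9 of the 10 genes in CPM, compared with 20.8% of all genes, and for all 10 in TPM, compared with 23.8%.

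Among the maturation factors, LARP7 differed most. LARP7 is a La-related protein that binds the 3′ end of 7SK RNA and also aids the modification of U6. The gene lies at chromosome 4, 112637077 to 112657696 (GRCh38, + strand), with the miR-302 cluster and its host RNA on the opposite strand inside it, and has 4 processed pseudogenes in the tables (LARP7P1 to LARP7P4). Its count is therefore uncertain wherever reads were shared. WT progenitors had 41.6, 40.8 and 45.1 CPM of LARP7 and mutants 72.1, 56.9 and 53.1 CPM. The lowest mutant library was above the highest WT library, and replicate 1 was the highest of the mutants. The log2 fold change was 0.48 ± 0.14 (edgeR adjusted p = 0.0407).

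SART3, the recycling factor that brings U4 and U6 together, lies at chromosome 12, 108522214 to 108561400 (- strand), and overlaps FICD on the other strand. It had 54.4, 57.8 and 61.3 CPM in WT and 78.0, 70.0 and 81.3 CPM in mutant progenitors. The groups did not overlap, at a log2 fold change of 0.36 ± 0.12 (edgeR adjusted p = 0.0555). SSB (chromosome 2, 169791933 to 169812064, + strand, overlapping METTL5 on the other strand) had 61.9, 74.2 and 84.3 CPM in WT and 98.1, 95.3 and 91.7 CPM in mutants. The WT libraries of SSB were more spread than the mutants, and the log2 fold change of 0.33 ± 0.13 passed narrowly (edgeR adjusted p = 0.0976). The call of SSB was lost without a filter on low counts (adjusted p = 0.12), in DESeq2 (0.103) and with transcript lengths as offsets (0.144). MEPCE, the enzyme that caps the 5′ end of 7SK RNA, lies at chromosome 7, 100428322 to 100434126 (+ strand) and overlaps ZCWPW1 on the other strand by 671 bases. A protein-coding gene model on its own strand (ENSG00000289690 in GENCODE v44, not among the identifiers of the tables) overlaps MEPCE by 5786 bases, so its count is uncertain. It had 48.6, 49.7 and 56.7 CPM in WT and 55.1, 57.3 and 70.1 CPM in mutants. These groups overlapped and the log2 fold change of 0.20 ± 0.14 did not pass (edgeR adjusted p = 0.329).

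All 3 U4/U6 proteins were called, and PRPF3 had the largest difference of the 10 genes. PRPF3 binds the U4/U6 duplex, and its gene lies on the long arm of chromosome 1, 150321479 to 150353233 (+ strand). It had 46.9, 49.9 and 59.7 CPM in WT and 75.8, 79.3 and 75.0 CPM in mutant progenitors. The 3 mutant libraries were close to each other and all above WT, and the fitted ratio was 1.43 (log2 0.52 ± 0.13, edgeR adjusted p = 0.0164). PRPF4, the partner of PRPF3 on U4/U6 (chromosome 9, 113275642 to 113294009, + strand), had 32.4, 39.4 and 45.6 CPM in WT and 53.2, 49.5 and 58.8 CPM in mutants. The groups of PRPF4 did not overlap (log2 0.42 ± 0.15, edgeR adjusted p = 0.0685), and the call was lost with transcript lengths as offsets (adjusted p = 0.155). PRPF31, which binds the stem of U4 (chromosome 19, 54115410 to 54131719, + strand, overlapping TFPT and PRPF31-AS1 on the other strand), had 33.6, 29.7 and 39.2 CPM in WT and 46.8, 47.6 and 51.4 CPM in mutants. All mutant libraries of PRPF31 were above WT, at log2 0.47 ± 0.14 (edgeR adjusted p = 0.0371).

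Of the U5 and tri-snRNP proteins only PRPF6 was called. PRPF6, the bridge between U4/U6 and U5 (chromosome 20, 63981132 to 64033100, + strand), had 111, 100.5 and 112 CPM in WT and 136, 157 and 143 CPM in mutant progenitors. The groups were apart, at log2 0.39 ± 0.12 (edgeR adjusted p = 0.0423). PRPF8, the scaffold of the spliceosome's active site (chromosome 17, 1650629 to 1684867, - strand), had 555, 602 and 634 CPM in WT and 687, 705 and 850.2 CPM in mutants. SNRNP200, the helicase that unwinds U4/U6 (chromosome 2, 96274338 to 96321271, - strand), had 470.4, 428 and 508 CPM in WT and 606, 556 and 581 CPM in mutants. For both genes the groups did not overlap, yet neither passed: the log2 fold changes were 0.29 ± 0.14 for PRPF8 (edgeR adjusted p = 0.165) and 0.27 ± 0.13 for SNRNP200 (0.16). SNRNP200 was called in the fit over 18 libraries (log2 0.31, adjusted p = 0.0601). A long non-coding RNA gene model on its own strand (ENSG00000230747, not among the genes quantified) overlaps SNRNP200 by 14009 bases. The SNRNP200 count is therefore uncertain wherever reads were shared.

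The number of the 10 genes called at D16 depended on single libraries, as did that over all genes (2450 to 5778 with 1 library left out, 4135 with none). Of the 10 genes, 2 were called without WT replicate 1, 1 without WT replicate 2, 8 without WT replicate 3, and 3, 4 and 3 without mutant replicates 1, 2 and 3. PRPF3 was called in all 6 of these fits, with adjusted p from 0.00425 to 0.0746, and PRPF6 in 4, LARP7 and PRPF31 in 3, SART3 in 2, and SSB and PRPF4 in 1. Each of the 10 log2 fold changes was above the median of the other tested genes within 5 Mb, which ran from -0.51 around PRPF3 to 0.26 around SSB. As all 10 values were positive and most of these medians lay near 0, this adds little to the count above. On the other days SSB, MEPCE, PRPF6 and PRPF8 (D0) and SSB and LARP7 (D30) lay below theirs. Single neighbours were higher than the gene itself in 4.94% of cases for PRPF3 and up to 44.2% for SSB. Several cell type marker sums separated the genotypes on the same day. The sum over 5 eosinophil and mast cell markers was 31663 to 58165 CPM in WT and 6509 to 10269 CPM in mutants, and that over 5 stromal markers 42.0 to 67.4 and 23.2 to 34.3 CPM. Of the 5 stromal genes, however, only 1 was called lower and none higher. Their median log2 fold change was 0.54, so the stromal sum does not stand for its list. Sums were higher in mutants for 5 stem cell markers (68.1 to 114 CPM in WT, 175 to 193 CPM in mutants), 5 erythroid markers (141 to 199 and 281 to 359 CPM), 4 megakaryocyte markers (575 to 658 and 810.0 to 873 CPM) and 5 monocyte and macrophage markers (234 to 422 and 438 to 524 CPM). The sums over 6 neutrophil markers (4068 to 10966 and 2865 to 4409 CPM) and 11 proliferation genes (2318 to 2878 and 2632 to 3174 CPM) overlapped. So did those over 4 endothelial markers (292 to 349 and 330 to 365 CPM). Counted by gene, 5 of the 6 neutrophil markers were called lower and none higher (median log2 -1.96). Of the 5 eosinophil and mast cell markers 3 were called lower and 1 higher (median -1.83). Of the 5 monocyte and macrophage markers 3 were called higher and 1 lower (median 0.95). Each of these last lists thus holds a gene called against its sum. Of the 11 proliferation genes 4 were called higher and none lower (median 0.41). Of the 4 endothelial markers 3 were called higher and none lower (median 1.16). Among all genes 13.1% were called higher and 15.3% lower. The part of these shifts in the differences of the 10 genes was not tested.

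**Figure D2:**
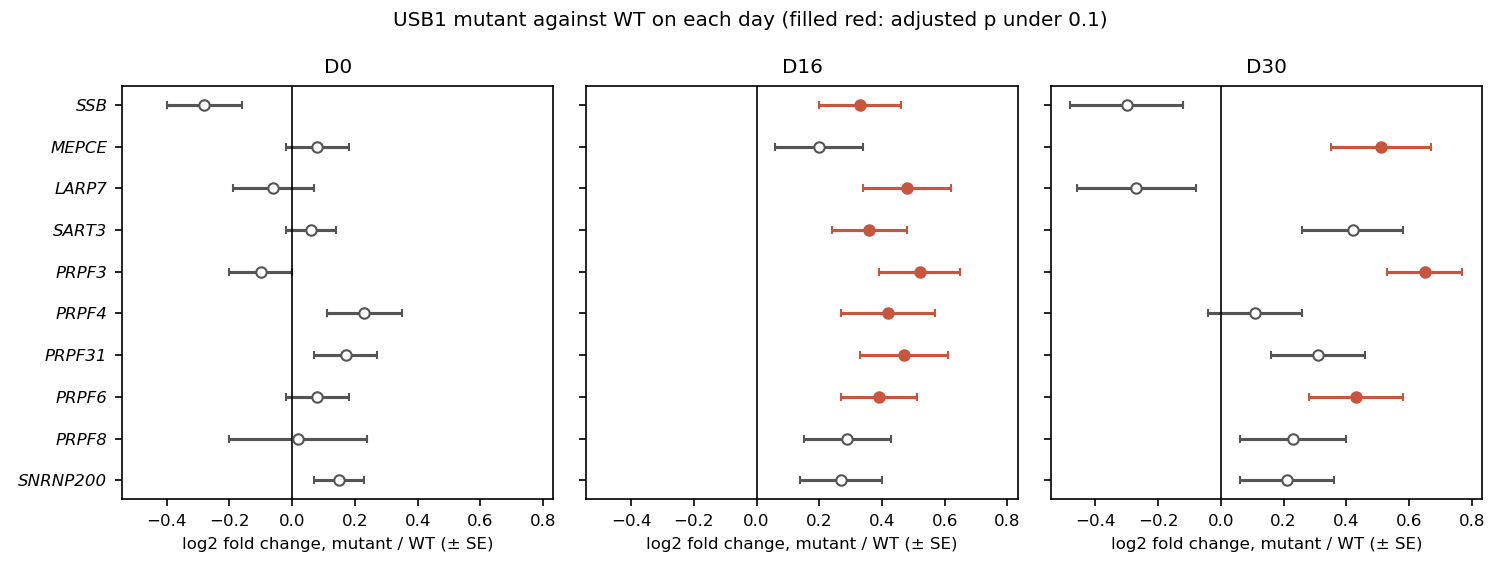
Log2 fold change of mutant over WT (horizontal axis, ± SE from edgeR) for each of the 10 genes at D0, D16 and D30, with filled red points for adjusted p under 0.1. No point is filled at D0, 7 are filled at D16 and 3 at D30, and PRPF3 is the highest on both later days.

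At D30, in mature blood cells, 3 of the 10 genes were called higher in the mutants (PRPF3, MEPCE and PRPF6) and none lower, where 10.8% of the 14263 genes tested were called higher and 9.75% lower. The median log2 fold change was 0.27 beside -0.01 for all genes, 8 of 10 values were positive, and mutant libraries lay above all WT libraries for 5 genes in CPM (17.6% of all genes). In TPM only PRPF3 did (7.80% of all genes), and SSB and LARP7 lay below (28.8%). PRPF3 had 52.9, 52.5 and 53.1 CPM in WT and 87.8, 81.8 and 79.4 CPM in mutants. The gap between the groups of PRPF3 was wider than the spread within them, at a ratio of 1.57 (log2 0.65 ± 0.12, edgeR adjusted p = 0.0128), and it was called with any 1 library left out. MEPCE had 49.3, 49.9 and 51.3 CPM in WT and 85.3, 58.4 and 70.1 CPM in mutants. The mutant libraries of MEPCE were all above WT but widely spread (log2 0.51 ± 0.16, edgeR adjusted p = 0.0766), and the call held in 1 of the 6 fits that left out a library. PRPF6 had 98.9, 116 and 104 CPM in WT and 165, 136 and 128 CPM in mutants. Its log2 fold change of 0.43 ± 0.15 (edgeR adjusted p = 0.0916) was called in none of those 6 fits, where adjusted p ran from 0.102 to 0.266. The call of PRPF6 was also lost with the replicate block (adjusted p = 0.121), without a count filter (0.144) and with lengths as offsets (0.165), and that of MEPCE with lengths as offsets (0.164).

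The other 7 genes did not pass at D30. SART3 had 60.9, 70.7 and 62.4 CPM in WT and 102, 83.8 and 73.6 CPM in mutants, without overlap and at log2 0.42 ± 0.16 (edgeR adjusted p = 0.111). SSB and LARP7 were the 2 genes with negative values, -0.30 ± 0.18 and -0.27 ± 0.19 (edgeR adjusted p = 0.307 and 0.378). PRPF4, PRPF31, PRPF8 and SNRNP200 lay between 0.11 and 0.31. Of the 10 genes, 1 was called without any of WT replicates 1, 2 and 3 or mutant replicate 1, and 2 without mutant replicate 2 or 3. Over all genes these fits called 1452 to 2958, beside 2933 with no library left out. At D30 the sum over 5 erythroid markers was 2917 to 4246 CPM in WT and 15664 to 31374 CPM in mutants, and that over 5 monocyte and macrophage markers 2876 to 3400 and 1307 to 2112 CPM. Whether these shifts play a part in the values of the 10 genes was not tested.

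At D16 and D30 PRPF3 went against its chromosome arm. Of the other tested genes on the long arm of chromosome 1, 82.8% of 661 had a log2 fold change below 0 at D0, 83.2% of 685 at D16 and 71.3% of 677 at D30, with medians of -0.19, -0.49 and -0.31. PRPF3 itself was at -0.10 ± 0.10 at D0, 0.52 ± 0.13 at D16 and 0.65 ± 0.12 at D30. At D0 33.3% of the arm's other genes had a higher value than PRPF3, at D16 5.11% and at D30 10.2%. The 162 other genes within 5 Mb of PRPF3 had medians of -0.51 at D16 and -0.30 at D30. Leaving the whole arm out of the fit left 5 of the other 9 genes called at D16 (LARP7, SART3, PRPF4, PRPF31 and PRPF6) and 1 at D30 (MEPCE). Over all genes that fit called 3637 at D16 and 2623 at D30. The main fit, which holds the genes of the arm, called 4135 and 2933.

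**Figure D3:**
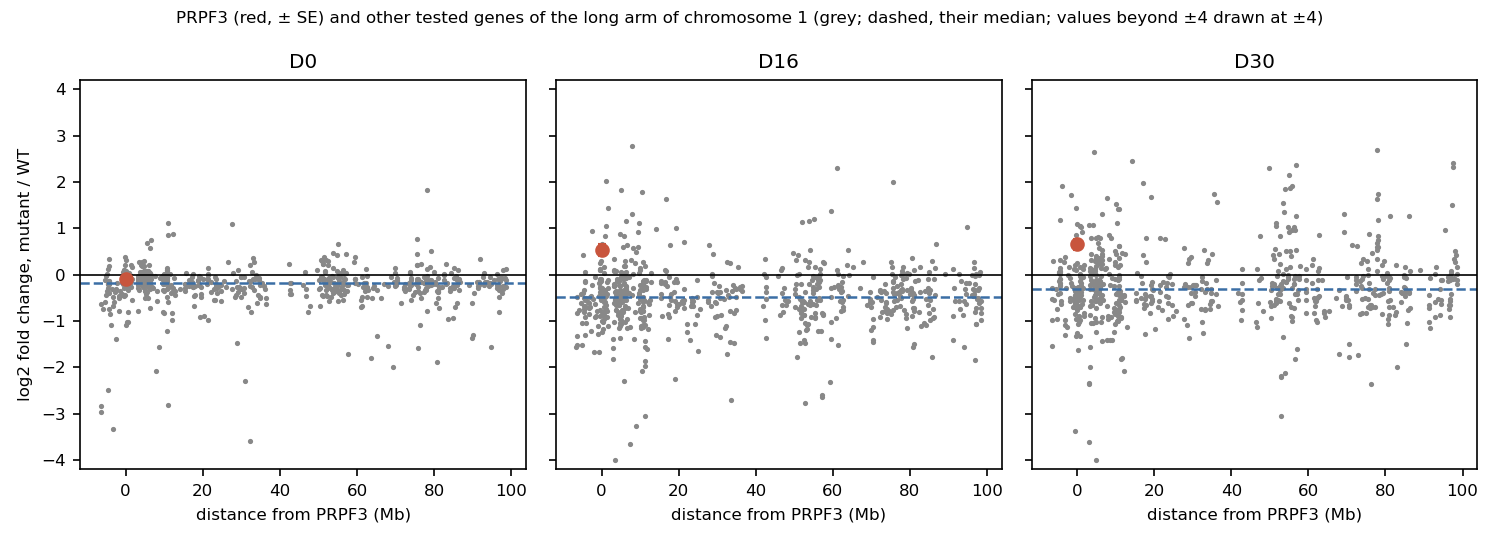
Log2 fold change of mutant over WT (vertical axis) for PRPF3 (red, ± SE) and the other tested genes of the long arm of chromosome 1 (grey) against distance from PRPF3 in Mb, at D0, D16 and D30, with values beyond 4 in either direction drawn at that limit. The dashed median of the other genes is below 0 on each day (-0.19, -0.49 and -0.31) while PRPF3 is at -0.10, 0.52 and 0.65.

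The second question was how the 10 mRNAs change over the differentiation of WT cells, here from the fit over 18 libraries. From D0 to D16, LARP7 rose and 6 genes fell (SSB, SART3, PRPF3, PRPF4, PRPF31 and PRPF6), in a comparison where 37.0% of the 16829 genes tested rose and 39.3% fell. LARP7 went from 20.8, 19.4 and 16.4 CPM at D0 to the 41.6, 40.8 and 45.1 CPM given above, at log2 1.17 ± 0.16 (edgeR adjusted p = 2.97e-06). In TPM, which is scaled to length, the WT mean of LARP7 rose less, from 25.0 to 32.8. SART3 went from 105, 109 and 116 CPM to 54.4, 57.8 and 61.3 CPM (log2 -0.92 ± 0.12, edgeR adjusted p = 1.59e-06). Thus the 2 genes moved in opposite directions, each with no overlap between days. SSB (log2 -0.90 ± 0.15) and PRPF31 (-0.89 ± 0.13) fell by a similar amount to SART3, with edgeR adjusted p of 3.09e-05 and 4.91e-06. PRPF3 (-0.40 ± 0.11), PRPF4 (-0.37 ± 0.13) and PRPF6 (-0.30 ± 0.12) fell less (edgeR adjusted p = 0.00319, 0.0211 and 0.0298). The call of PRPF4 was lost without WT D16 replicate 1 (adjusted p = 0.139) and that of PRPF6 without WT D16 replicate 2 (0.123). MEPCE, PRPF8 and SNRNP200 did not pass, at -0.23 ± 0.14, 0.07 ± 0.20 and -0.20 ± 0.11. With RLE scaling in edgeR, MEPCE and SNRNP200 were called lower (adjusted p = 0.0824 and 0.0534), and so they were in DESeq2 (0.081 and 0.0139).

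From D16 to D30 in WT, 3 of the 10 genes fell and none rose, where 35.1% of all genes fell and 31.6% rose. SSB fell by a further 0.53 ± 0.15 on the log2 scale (edgeR adjusted p = 0.00549), so that its WT mean went from 137 CPM at D0 to 73.5 CPM at D16 and 50.9 CPM at D30. PRPF4 fell by 0.48 ± 0.14 (edgeR adjusted p = 0.00546), from 39.1 ± 6.62 to 28.2 ± 1.52 CPM. SNRNP200 was lower by log2 -0.23 ± 0.11 (edgeR adjusted p = 0.0782), a call lost in 6 of 18 fits without 1 library (WT D16 replicate 1 or 3, any WT D30 replicate or mutant D30 replicate 2, adjusted p up to 0.231). The remaining 7 genes had log2 changes from -0.33 to 0.16.

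In the mutants, 5 of the 10 genes were called from D0 to D16, where 36.9% of all genes rose and 36.0% fell: LARP7, PRPF3 and PRPF8 rose and SART3 and PRPF31 fell. LARP7 rose from 16.1, 19.8 and 18.2 CPM to 72.1, 56.9 and 53.1 CPM, at log2 1.75 ± 0.16 (edgeR adjusted p = 1.99e-08). SART3 fell by 0.58 ± 0.12 and PRPF31 by 0.55 ± 0.12 on the log2 scale (edgeR adjusted p = 0.00028 and 0.000768). PRPF3 was at 68.4, 60.0 and 63.9 CPM in mutant hESCs and at 75.8, 79.3 and 75.0 CPM in mutant progenitors. All 3 later libraries were thus above the earlier ones, by log2 0.26 ± 0.11 (edgeR adjusted p = 0.0424). That call was lost without replicate 2 of mutant D0 or D16 (adjusted p up to 0.149) and with RLE scaling (log2 0.18, adjusted p = 0.132). PRPF8 (log2 0.38 ± 0.20, edgeR adjusted p = 0.0972) was called in 9 of 18 fits without 1 library and overlapped between days, and without mutant D16 replicate 2 the count was 3 of 10 genes.

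From D16 to D30 5 of the 10 genes fell in the mutants and none rose, where 35.1% of all genes fell and 34.7% rose: SSB by log2 -1.21 ± 0.15, LARP7 by -0.98 ± 0.16, PRPF4 by -0.82 ± 0.14, PRPF8 by -0.43 ± 0.20 and SNRNP200 by -0.34 ± 0.11. LARP7 fell to 24.0, 36.1 and 32.0 CPM and SSB to 36.2, 43.9 and 43.7 CPM, each below every mutant library of D16. The edgeR adjusted p were 2.49e-06 for SSB, 3.28e-05 for LARP7, 4.89e-05 for PRPF4, 0.065 for PRPF8 and 0.0129 for SNRNP200. The call of PRPF8 was lost without mutant D16 replicate 3 or mutant D30 replicate 1 or 2 (adjusted p up to 0.2), and with transcript lengths as offsets its sign turned (below).

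**Figure D4:**
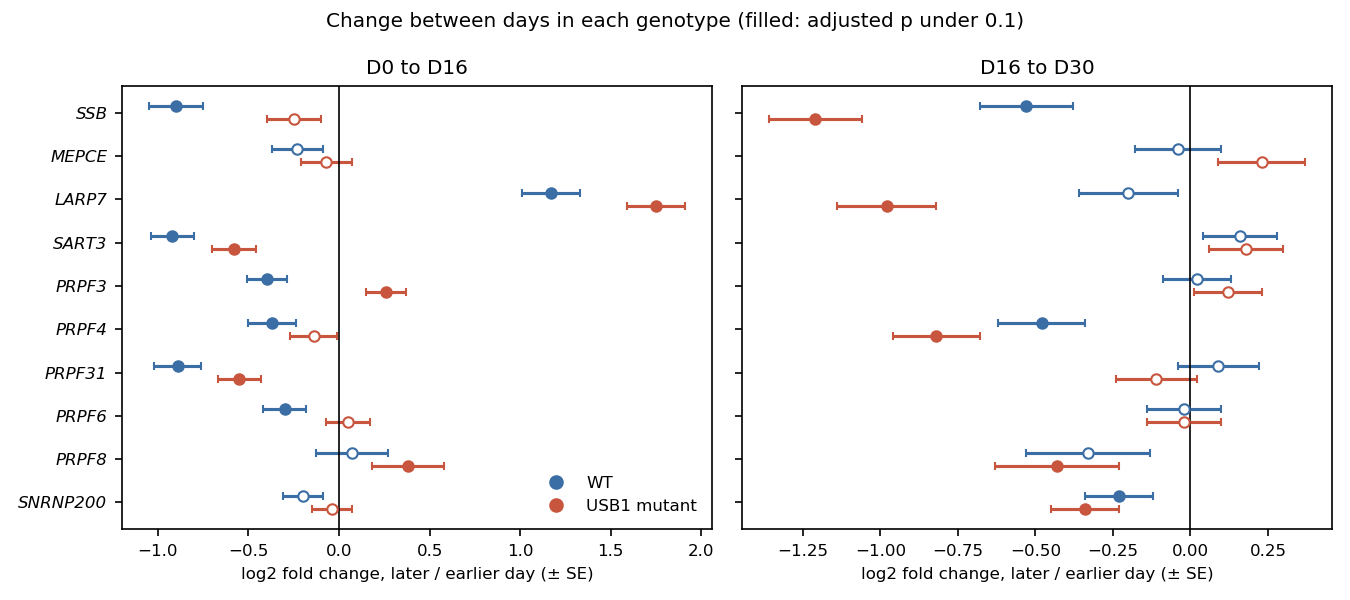
Log2 fold change of the later over the earlier day (horizontal axis, ± SE from edgeR over 18 libraries) for each of the 10 genes in WT (blue) and USB1 mutants (red), filled where adjusted p is under 0.1. From D0 to D16 PRPF3 is at -0.40 in WT and 0.26 in mutants, and from D16 to D30 LARP7 is at -0.20 in WT and -0.98 in mutants.

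Whether the genotype difference itself changed between days was tested as an interaction. Between D0 and D16, PRPF3 and SSB were called, both with a difference that moved upward (3.86% of all genes). The genotype difference of PRPF3 was higher at D16 than at D0 by log2 0.66 ± 0.15 (edgeR adjusted p = 0.0224) and higher at D30 than at D0 by 0.76 ± 0.15 (edgeR adjusted p = 0.00664, 6.42% of all genes called upward). Both PRPF3 interactions were called in all 18 fits that left out 1 library. From D16 to D30 that difference of PRPF3 did not pass (0.10 ± 0.15, edgeR adjusted p = 0.734). The difference of SSB went up by log2 0.65 ± 0.21 from D0 to D16 (edgeR adjusted p = 0.0917) and down by -0.67 ± 0.22 from D16 to D30 (edgeR adjusted p = 0.0441, 10.2% of all genes called downward). The first SSB call was lost in 11 of the 18 fits without 1 library: without WT D0 replicate 1 or 2, any mutant D0 or mutant D16 replicate, WT D16 replicate 1 or 2 or WT D30 replicate 2 (adjusted p up to 0.217). The second was lost without replicate 1 of WT D16 or of WT D30 (adjusted p up to 0.126). The difference of LARP7 went down by log2 -0.78 ± 0.22 from D16 to D30 (edgeR adjusted p = 0.0251), called in all 18 such fits. Thus LARP7 was higher in mutants at D16, where it was called, and did not pass at D30, and this change between days passed its own test. The other 7 genes passed in none of the 3 interactions.

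The deposited average effective transcript length, which follows the mix of transcript forms to which reads were assigned, differed with day for some of the genes and is given as a description, with no test. At D30 the length of SART3, PRPF3, PRPF8 and SNRNP200 was shorter in every WT library than in any WT D0 library, and PRPF31 and PRPF6 were longer. Among all genes 19.5% were shorter and 30.4% longer without overlap, and the median gene stood at 101% of its D0 length. PRPF8 was assigned 5927, 5437 and 6285 bases in WT D0 and 4344, 2986 and 4018 bases in WT D30. In mutants it had 5694, 6101 and 6390 bases at D0 and 2295, 3240 and 4002 bases at D30. The D30 libraries of PRPF8 thus lay below all D0 libraries in both genotypes, at 64.3% and 54.0% of the WT D0 mean. SART3 was at 1919 ± 158 bases in WT D0, 2105 ± 128 in WT D16 and 1541 ± 103 in WT D30. SNRNP200 was at 5042 ± 206 and 4379 ± 344 bases in WT D0 and D30, and PRPF3 at 1646 ± 32.1 and 1402 ± 49.1 bases. Between genotypes of 1 day the lengths overlapped for all 10 genes but SNRNP200 at D16, whose mutant libraries were longer (5273 to 5550 bases, WT 5113 to 5260 bases). At D16 4.22% of all genes were longer and 6.08% shorter without overlap, so 1 such gene among 10 is near the background.

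**Figure D5:**
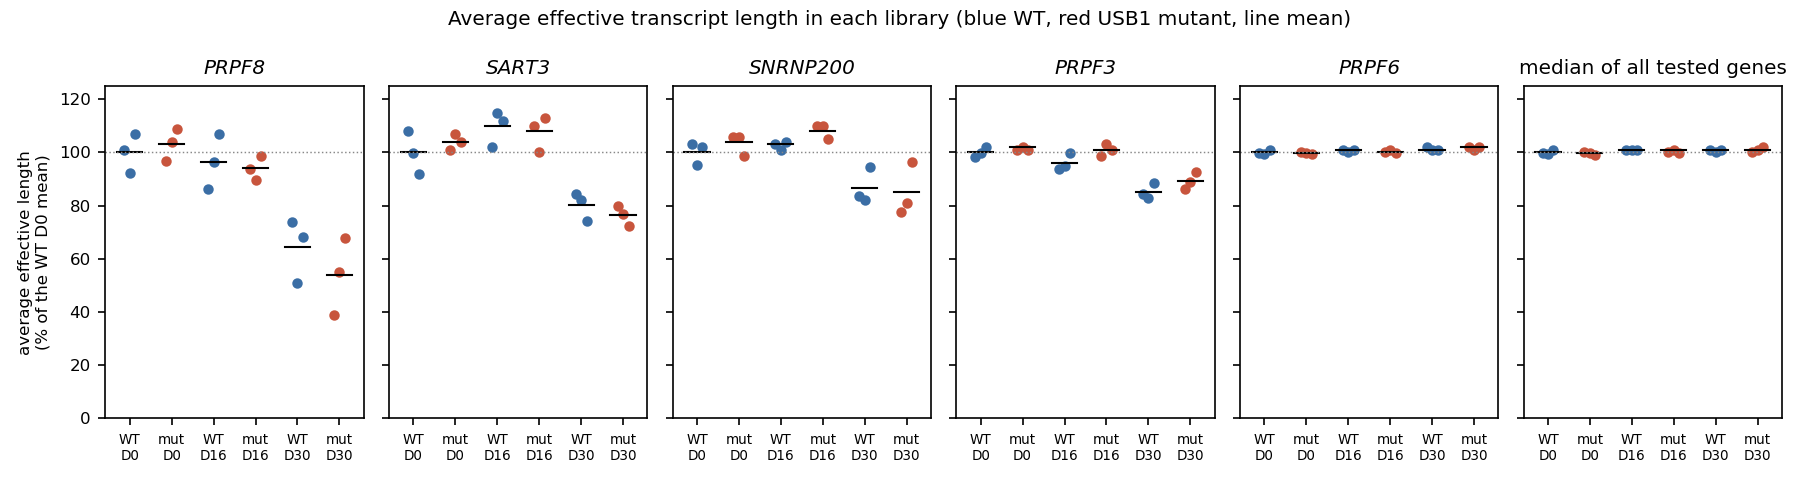
Average effective transcript length (vertical axis, percent of the WT D0 mean of that gene, from 0) in every library for 5 of the 10 genes and for the median over all tested genes. At D30 PRPF8 is at 64.3% in WT and 54.0% in mutants and SART3 at 80.3% and 76.3%, while the median gene is at 101% in both.

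These lengths bear on the changes between days, since a shorter average length gives fewer counts per molecule. With lengths as offsets in edgeR, SART3 rose from D16 to D30 in WT (log2 0.59, adjusted p = 0.000687) and in mutants (0.61, 0.000469), where the counts alone gave 0.16 ± 0.12 and 0.18 ± 0.12. SNRNP200 was no longer called lower in either genotype (adjusted p = 0.999 and 0.842). PRPF8 turned from -0.43 to 0.35 in mutants (adjusted p = 0.0986).

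The wider set of genes that make or use U6 was counted in the same way at D16, where 13.1% of all genes were called higher and 15.3% lower. In the Lsm ring, which binds the trimmed end of U6, 3 of 7 genes were called higher and none lower, at a median log2 of 0.35. LSM4 was at 75.9 ± 18.7 CPM in WT and 111 ± 6.15 CPM in mutants, and LSM8, the subunit that sets the nuclear ring apart, at 65.9 ± 6.42 and 89.4 ± 9.93 CPM. Of the 3 other U6 processing enzymes, TUT1 (the U6 uridylyltransferase) and METTL16 (the U6 methyltransferase) were called higher and USB1 was not. METTL16 had 33.5 ± 3.82 CPM in WT and 50.1 ± 1.41 CPM in mutants (log2 0.54 ± 0.13, edgeR adjusted p = 0.0156). Of the other U4/U6, U5 and tri-snRNP proteins 3 of 11 were called higher (USP39, DDX23 and SART1), of the 7SK partners 2 of 5 (HEXIM1 and HEXIM2), and of the assembly factors 1 of 9 (TSSC4), none of them lower. The factors that transcribe U6 genes through RNA polymerase III had 2 of 10 higher (SNAPC2 and SNAPC4) and 1 lower (ZNF143), at a median of -0.04. Beyond U6, 2 of 3 U1 proteins (SNRPC and SNRNP70), 2 of 12 U2 proteins (SF3B5 and SF3B6) and 2 of 11 Prp19 complex proteins and helicases (PRPF19 and CDC5L) were called higher. Medians of these 3 lists were 0.47, 0.21 and 0.27. The shares of the U2, Prp19, assembly factor and polymerase III lists called higher were near that of all genes.

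At D0 no gene of these 9 lists was called, and at D30, where 10.8% of all genes were called higher, the counts were 1 of 7 for the Lsm ring (LSM8), 1 of 11 for the other tri-snRNP proteins (SART1), 1 of 5 for the 7SK partners (HEXIM1), 2 of 9 for the assembly factors (ZNHIT2 and TSSC4), 1 of 12 for U2 (SF3A2) and none in the other 4 lists. From D16 to D30 in WT the Lsm ring had 5 of 7 genes lower and 1 higher at a median of -1.19, beside -0.12 for the 10 genes. LSM3 went from 41.4 ± 3.14 to 12.4 ± 2.57 CPM (log2 -1.76 ± 0.26, edgeR adjusted p = 1.24e-05). Of the other tri-snRNP proteins 7 of 11 fell and 2 rose, and PPIH, a U4/U6 cyclophilin, went from 32.1 ± 6.46 to 7.97 ± 1.63 CPM. Among all genes 35.1% fell and 31.6% rose. The fall was not particular to U6 proteins: 9 of 12 U2 proteins fell and none rose (median -0.68). Of the Prp19 complex proteins and helicases 7 of 11 fell and 3 rose (median -0.66). All 11 proliferation genes fell (median -1.58).

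Over the 18 libraries the 10 genes did not share 1 profile. Pearson's r of each gene's log2 CPM with the mean of the other 9 ran from -0.387 for LARP7 to 0.878 for SNRNP200, and between pairs from -0.787 (LARP7 and SART3) to 0.932 (SART3 and PRPF31). The genes outside the set most like the mean profile of the 10 were HACD1 (r = 0.937), POLDIP3 (0.929), NUP85 (0.925), AHSA1 (0.925) and USP5 (0.92). These correlations describe 18 libraries that share groups and depth and carry no test.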

How the data were processed

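Strand-specific, rRNA-depleted libraries were trimmed by the authors with Trimmomatic 0.36 and quantified with Salmon 0.13.1 on Ensembl GRCh38 v99 cDNA, per the methods and the submitters' processing notes. Whether quantification used strand is not given in the sources used here. The authors deposited expected counts, TPM and average effective transcript lengths per gene and library. Their DESeq2 version is not given in the sources used here.

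Symbols and positions came from GENCODE v44, which matched 35051 identifiers. The 117 others held 0.238% of counts. Expected counts were rounded and tested with edgeR 4.0.16 in R 4.3.3 (filterByExpr, TMM, glmQLFit, glmQLFTest), tested first on simulated data. Genotypes were compared within each day on 6 libraries. Days and interactions came from 1 fit over 18 libraries with 6 group means. TPM gave levels between genes. Alternatives were RLE scaling, no count filter, DESeq2 1.42.0, lengths as offsets, a replicate block, a fit over 18 libraries, each library left out and, chosen after seeing the data, the long arm of chromosome 1 left out and TPM in place of CPM for overlap between groups. The sources used here do not say that replicates were separate cultures, and the p-values then cover only library-to-library spread, which may be technical.

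The members and lists were chosen with earlier results of these data known. Named genes were the 10 members, USB1, the called genes of 9 lists with the smallest adjusted p (at most 3 per list) and the 5 genes most like the members' mean profile.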

Additional observations from a re-analysis of the deposited data

Results flagged for a closer look

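For 3 of the 10 genes the difference between mutant and WT changed between days by a test of that change itself (edgeR interaction over 18 libraries, n = 3 per group). PRPF3 was flagged in both contrasts against D0, with a genotype difference higher by log2 0.66 ± 0.15 at D16 (adjusted p = 0.0224) and by 0.76 ± 0.15 at D30 (adjusted p = 0.00664). SSB was flagged for a rise of 0.65 ± 0.21 from D0 to D16 (adjusted p = 0.0917) and a fall of -0.67 ± 0.22 from D16 to D30 (adjusted p = 0.0441). LARP7 was flagged for a fall of -0.78 ± 0.22 from D16 to D30 (adjusted p = 0.0251).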

How the results depend on the processing

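Over all genes, the number called at D0 was 432, and became 176 with lengths as offsets, 185 in the fit over 18 libraries and 1718 with the replicate block. At D30 it was 2933, and 4892 in the fit over 18 libraries. The interactions called 1281 genes from D0 to D16 and 1834 from D0 to D30, and 663 and 1186 with lengths as offsets. Of the 10 genes, the block called 1 at D0 (SSB). At D16, where 7 were called, the alternatives called 5 (lengths as offsets) to 8 (fit over 18 libraries, which adds SNRNP200). Leaving out the long arm of chromosome 1 also takes PRPF3 itself out of the test. That fit called 3637 genes in all at D16 and 2623 at D30, beside 4135 and 2933 in the main fit. With the arm left out, 5 of the others were called at D16, and only SSB was lost (edgeR adjusted p = 0.119). At D30, lengths as offsets called 1 and the fit over 18 libraries 5. The fit without the long arm called 1 of the others (MEPCE), and only PRPF6 was lost (edgeR adjusted p = 0.101). In the interaction from D0 to D16, RLE scaling, no count filter, lengths as offsets and the block each called 1 (PRPF3). The 1 reversed value was PRPF8 from D16 to D30 in mutants (0.35 with lengths as offsets). The cause of the other moves was not tested.

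With 1 library left out, genes called ran from 116 to 393 at D0, 2450 to 5778 at D16 and 1452 to 2958 at D30, and from 602 to 2207, 2437 to 4227 and 1202 to 2288 in the interactions (D0 to D16, D16 to D30, D0 to D30). Of the 10 genes, 0 to 0, 1 to 8 and 1 to 2 were called by day, and 1 to 3, 1 to 3 and 1 to 2 in the interactions. Between days, 6 to 9 (WT) and 3 to 5 (mutants) were called from D0 to D16, and 2 to 4 and 4 to 6 from D16 to D30.

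Deviations of same-numbered WT and mutant libraries from their group means had r of 0.085 to 0.169 at D0 and 0.0886 to 0.249 at D16. At D30 r was -0.024 to 0.195. The labels do not call same-numbered libraries pairs, and the main fits did not use the numbers as such. Over all genes, the block took the number called from 432 to 1718 at D0, 4135 to 5407 at D16 and 2933 to 3189 at D30. With the block, 7 of the 10 genes were called at D16 and 2 at D30, where PRPF6 was lost.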
